A study of Homo sapiens with 6 samples.

Results

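Histone-modifying enzymes were followed in LoVo cells, a long-established human line of colorectal adenocarcinoma (Dukes' type C in the labels), grown for 48 h with vehicle (Control, 3 libraries) or with 2.5 μM DCC-2036 (3 libraries). DCC-2036, also called rebastinib, is a small-molecule tyrosine kinase inhibitor. The labels name no other allele or agent, and a treatment time shorter than that of the labels stands in a figure legend of the study. RNA of whole cultures of 1 line was measured, so a loss of cells that hold a transcript and a loss of the transcript in each cell cannot be told apart, and whether the replicates were separate cultures is not given in the sources used here, so that p-values may measure technical spread alone. The members were all gene symbols of the deposited table that begin with KDM, KMT, KAT and a digit, HDAC, SIRT, SETD, NSD, PRMT or SUV, together with EZH1, EZH2, EP300, CREBBP, EHMT1, EHMT2, DOT1L and CARM1. This rule found 87 of 19223 symbols, of which 48 are writers, 37 are erasers and 2 are neither. The latter are NSDHL, a dehydrogenase of sterol synthesis that only shares the letters, and SETDB2-PHF11, a read-through transcript whose sequence overlaps SETDB2.

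Writers add acetyl or methyl groups to the tails of histones, and erasers remove them. Acetylation of lysines, by KAT enzymes, CREBBP and EP300, loosens the hold of histones on DNA and marks active genes, and HDAC enzymes and NAD-dependent sirtuins take the acetyl groups off. Methylation acts by position. On histone H3, methylated lysine 4 and lysine 36 go with transcription and methylated lysine 9 and lysine 27 with silencing, and on histone H4 methylated lysine 20 goes with compact chromatin. In colorectal tumours several of these enzymes, among them KMT2C, KMT2D, CREBBP and EP300, are known as targets of mutation, and inhibitors of HDAC enzymes, EZH2, KDM1A and PRMT5 exist as drugs or drug candidates.

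The values are normalized signals, 1 per transcript and library, which the authors had adjusted to a common depth, and the number of reads behind them is unknown. Column totals ranged from 38997229 to 40587145 in Control and from 43279603 to 48023306 with DCC-2036. Of 12 colorectal epithelial markers, 7 reached a signal of 10, with KRT8, KRT19 and KRT18 the highest, whereas CDX1 and LGR5 were at 0 in each library and VIL1, GPA33 and CEACAM5 stayed below 10. The summed signal of this list was 104483 to 115003 in Control and 148338 to 188450 with DCC-2036. From Control to DCC-2036, mean signals went from 59932 to 108237 for KRT8, 19269 to 25015 for KRT18 and 1605 to 3444 for CDH1. EPCAM went from 4578 to 5591 and KRT19 from 23490 to 24157, while CDX2 went from 297 to 286 and KRT20 from 53.1 to 23.4. Of 12 markers of blood, stromal and endothelial cells, 7 reached 10 in at least 1 library and PTPRC was at 0, and the sum of the 12 was 639 to 676 in Control and 709.6 to 855 with DCC-2036. The highest of them were COL1A1, with mean signals of 376 in Control and 457 with DCC-2036, and CD68, with 245 and 240. The part of these shifts in the results below was not tested.

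To place the members in the genome before their values are given, stretches of DNA directly upstream of 4 of them are shown. These 4 were chosen because their calls were among those that held under each alternative setting, and because they stand for writers and erasers of 3 marks. KMT5B and KMT5C methylate the same lysine of histone H4 and moved in opposite directions, KDM1A erases methylation of lysine 4 of histone H3, and SUV39H1 writes methylation of lysine 9. The sequences are RefSeq GRCh38.p14, written 5′ to 3′ on the strand of the gene, and end at the base before the start of the gene in GENCODE 29. Capitals mark GC boxes (GGGCGG) and CCAAT boxes (CCAAT), searched on both strands. KMT5B is shown for chr11:68213829-68213898 (- strand), KMT5C for chr19:55339733-55339852 (+ strand), KDM1A for chr1:23019323-23019442 (+ strand) and SUV39H1 for chrX:48695434-48695553 (+ strand).
KMT5B: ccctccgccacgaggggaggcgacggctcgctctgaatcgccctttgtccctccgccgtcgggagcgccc
KMT5C: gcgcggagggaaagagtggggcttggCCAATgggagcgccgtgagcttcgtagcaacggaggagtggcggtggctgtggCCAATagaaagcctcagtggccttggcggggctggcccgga
KDM1A: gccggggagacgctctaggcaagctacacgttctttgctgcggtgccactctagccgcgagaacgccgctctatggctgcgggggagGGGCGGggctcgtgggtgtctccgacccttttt
SUV39H1: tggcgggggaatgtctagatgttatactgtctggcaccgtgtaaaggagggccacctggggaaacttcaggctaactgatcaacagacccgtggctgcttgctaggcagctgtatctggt
The KMT5C stretch held 2 CCAAT boxes and the KDM1A stretch 1 GC box, and neither motif was in the other stretches. These stretches are only part of the promoters. The KMT5B stretch, of 70 bases, ends 181 bases before the nearest RefSeq start, and the 3 RefSeq windows of KMT5B held 3, 3 and 1 GC boxes. The second RefSeq window of SUV39H1, downstream of the stretch shown, held 2 GC boxes and 1 CCAAT box.

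RefSeq promoter windows were found for 79 of the 87 members, 120 windows in all, and their 250 bases before the transcription start were searched for 4 motifs on both strands. A GC box was in 65% of the members' windows and in 42.6% of all 35116 RefSeq windows. Those windows belong to 27305 symbols and were not limited to symbols measured or tested here, whereas nearly all members were tested. A TATA box (TATAAA) was in 0.833% of the members' windows, against 10.7% of all windows. The CCAAT box was in 31.7% and 32.0%, and the E-box CACGTG in 11.7% and 6.34%. Among windows of members whose RNA was higher with DCC-2036, 16 of 19 (84.2%) held a GC box, among those of lower members 15 of 21 (71.4%), and among those of tested members not called 46 of 77 (59.7%). These are matches of letters in a window, without a test.

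The first question was whether the enzymes that write histone marks and those that erase them moved together. Each class held members that rose and members that fell, in numbers that varied with the libraries and settings used. Of the 87 members, 84 had signals reaching 10 in 3 or more libraries and were tested, and KDM4E, KDM5D and PRMT8, with no signal above 1.13, were not. Of those tested, 83 reached 10 in each of the 6 libraries, SIRT4 being the exception. At an adjusted p-value under 0.01 (limma on log2(signal + 1), two-sided, Benjamini-Hochberg over 12725 symbols), 18 members were higher and 16 lower with DCC-2036. Among all 12725 tested symbols 19.2% were higher and 22.7% lower, 41.9% in either direction, so the members' share of 40.5% lay near the background. Of the called members, 9 rose and 9 fell by 1 or more on the log2 scale, against 7.42% and 15.2% of all symbols, 22.6% in all. The Control and DCC-2036 values did not overlap in 28 members that were higher and 32 that were lower, where 32.9% and 38.1% of all symbols, 71.1% in all, were of these kinds. The median log2 fold change was -0.07 over the members and -0.09 over all tested symbols.

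The classes were described by their counts and medians. Of 47 tested writers, 10 were higher, 10 lower and 27 not called, and their median log2 fold change was -0.12 (interquartile range -0.64 to 0.46). Of 35 tested erasers, 8 were higher, 6 lower and 21 not called, with a median of 0.02 (-0.60 to 0.48). The higher and lower counts were 2 and 6 writers and 4 and 1 erasers without Control replicate 1 or 3, 3 and 7 writers and 4 and 1 erasers without Control replicate 2, and 3 and 7 writers and 4 and 2 erasers without DCC-2036 replicate 2. They were 10 and 14 writers and 8 and 10 erasers without DCC-2036 replicate 1, and 10 and 13 writers and 9 and 9 erasers without DCC-2036 replicate 3. For symbols with any signal above 0 they were 4 and 10 writers and 6 and 3 erasers. The erasers' median was negative in 5 alternatives, with libraries scaled to equal totals (-0.16), with the median over transcripts (-0.08) and without Control replicate 2 (-0.04) or DCC-2036 replicate 1 (-0.23) or 2 (-0.13), and the writers' median was 0.01 without DCC-2036 replicate 3. By family, calls higher and lower were 3 and 2 of 10 acetyltransferases, 5 and 5 of 29 lysine methyltransferases, 2 and 3 of 8 arginine methyltransferases, 4 and 1 of 11 classical deacetylases, 1 and 1 of 7 sirtuins, and 3 and 4 of 17 lysine demethylases. Without enzymes classed as mainly of other substrates, 8 of 39 writers were higher and 8 lower, and 7 of 27 erasers were higher and 3 lower, with medians of -0.27 and 0.05. The higher erasers of this set include HDAC8, whose transcripts were called in both directions. No test was made over the members, which are not replicates. The share of all symbols called is not given here for the left-out libraries and the other filter, so these counts have no background beside them.

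**Figure D1:**
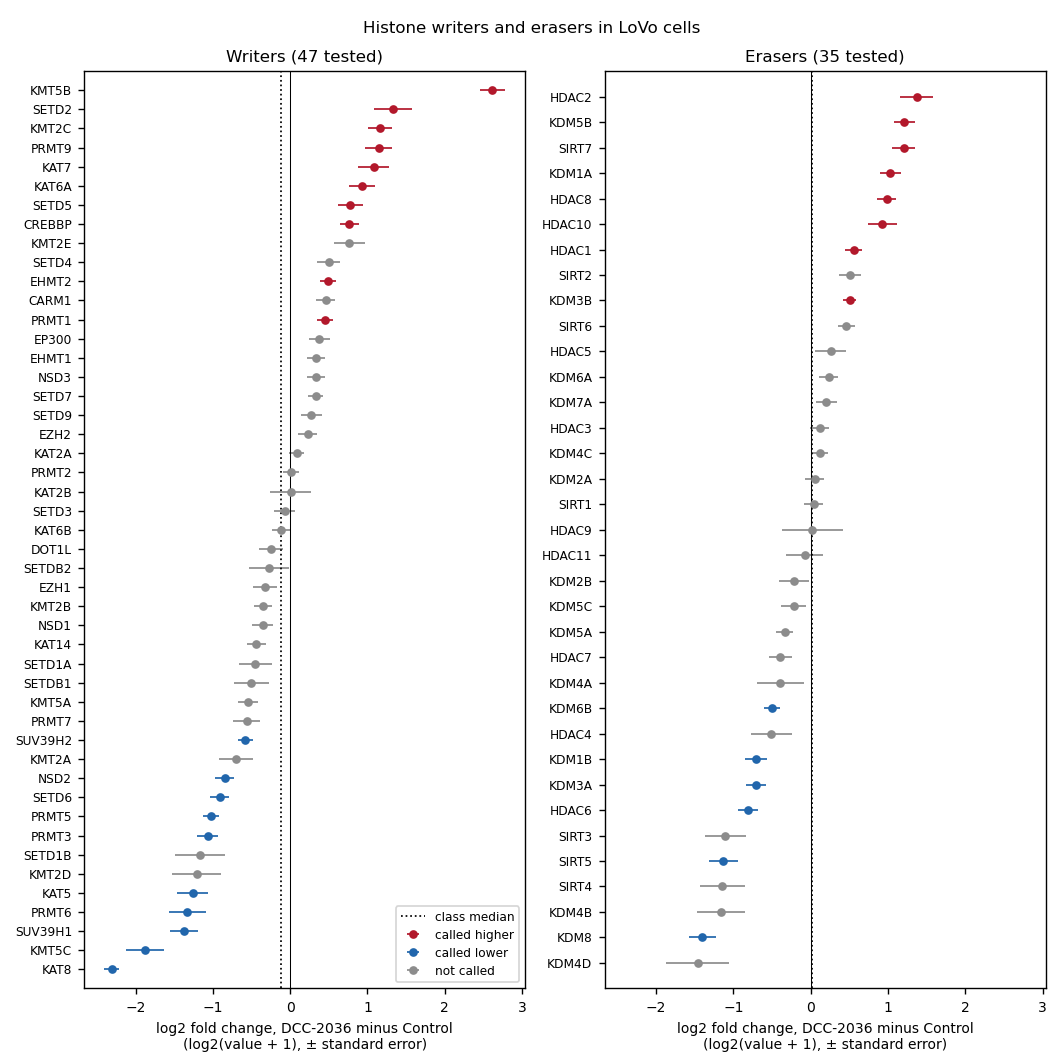
Log2 fold change (DCC-2036 minus Control, on log2(signal + 1)) of each tested writer (left, 47) and eraser (right, 35), as points with standard errors (n = 3 libraries a group); red and blue points were called higher or lower at an adjusted p-value under 0.01 and the dotted line is the class median. Both classes reach to either side of 0, from KAT8 at -2.31 to KMT5B at 2.62 among the writers and from KDM4D at -1.46, which was not called, to HDAC2 at 1.37 among the erasers.

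The widest split within a mark was at lysine 20 of histone H4. KMT5A places the first methyl group there, and KMT5B and KMT5C, which are close relatives, add further ones. KMT5B (chr11:68154863-68213828, - strand, GRCh38 in GENCODE 29, from here on the source of coordinates; the table names no build) had signals of 455, 475 and 427 in Control and 2217, 2899 and 3328 with DCC-2036 (log2 fold change 2.62, standard error 0.17, adjusted p = 0.00021, limma). The DCC-2036 values were all above each Control value, and the mean was 622% of Control for this transcript. The log2 fold changes of its 5 tested transcripts ranged from 1.66 to 2.64, and with the median signal over transcripts it was 1.80. KMT5C (chr19:55339853-55348120, + strand) had 138, 120.2 and 108 in Control and 47.5, 25.1 and 28.4 with DCC-2036 (log2 fold change -1.87, standard error 0.25, adjusted p = 0.00133, limma), with no overlap in the other direction. KMT5A lay at 1341, 1356 and 1299.5 in Control and 1007, 966 and 779 with DCC-2036 (log2 fold change -0.55, adjusted p = 0.0101, limma), lower in all 3 DCC-2036 libraries but just outside the limit for a call. Within each library, the signal of the kept transcript of KMT5B divided by that of KMT5C was 3.29 to 3.97 in Control and 46.6 to 117 with DCC-2036. Both calls held under all alternatives run for them, KMT5B in 14 and KMT5C in 13.

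Of the enzymes that methylate lysine 36 of histone H3, SETD2 rose and NSD2 fell. SETD2, which follows elongating RNA polymerase II and writes the most methylated form of the mark, had 1798, 1655 and 1618 in Control and 2966, 4299.8 and 5989.7 with DCC-2036 (log2 fold change 1.33, standard error 0.25, adjusted p = 0.00455, limma). Its DCC-2036 values spread widely but lay above all Control values. NSD2, which writes the less methylated form, had 4824, 4350.5 and 4582 in Control and 2790.5, 2645 and 2231 with DCC-2036 (log2 fold change -0.85, standard error 0.12, adjusted p = 0.00173, limma), without overlap. The related NSD1 went from 2810.3 ± 85.9 to 2214 ± 339 (SD, n = 3) and NSD3 from 982 ± 91.5 to 1238 ± 91.3 (SD, n = 3), and neither was called (log2 fold change -0.36, adjusted p = 0.0615, limma, and log2 fold change 0.33, adjusted p = 0.0439, limma). The ratio of SETD2 to NSD2 was 0.353 to 0.380 in Control and 1.06 to 2.68 with DCC-2036. KDM2A and KDM2B, grouped here as erasers of this mark, were not called, at log2 fold changes of 0.05 and -0.22. The log2 fold change of KDM2A was -0.14 with libraries scaled to equal totals. KDM4A, KDM4B and KDM4C, which also act on this lysine, were grouped under another mark and are given below. KDM4B was lower in each DCC-2036 library but not called (log2 fold change -1.16, adjusted p = 0.0164, limma). KDM4A and KDM4C overlapped Control and were not called either (log2 fold changes -0.39 and 0.12). The call of SETD2 was lost without Control replicate 1, 2 or 3 or DCC-2036 replicate 2 and, among other settings, when symbols with any signal above 0 were tested (adjusted p up to 0.0205 over all alternatives), and that of NSD2 without Control replicate 1 or 3 (up to 0.0106).

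At lysine 4 of histone H3 a member of each side rose. Of 7 writers 1 was called, KMT2C, an enhancer methyltransferase, with 790.0, 696 and 622 in Control and 1346, 1545 and 1833 with DCC-2036 (log2 fold change 1.16, standard error 0.16, adjusted p = 0.00139, limma). Its closest relative KMT2D had 4131, 3656 and 3843 in Control and 2582, 1721 and 1050.0 with DCC-2036 (log2 fold change -1.21, standard error 0.31, adjusted p = 0.0149, limma), which did not overlap but did not pass the limit. The ratio of KMT2C to KMT2D went from 0.162 to 0.191 in Control to 0.521 to 1.75 with DCC-2036. KMT2A, which acts at promoters of developmental genes, had 2979.8, 2381 and 2518 in Control and 2030.2, 1729 and 1176 with DCC-2036 (log2 fold change -0.70, adjusted p = 0.029, limma), lower in each DCC-2036 library without passing the limit, and 23.1% of its length is shared with other annotated genes together. SETD1B (log2 fold change -1.17, adjusted p = 0.0185, limma), KMT2B (log2 fold change -0.35, adjusted p = 0.0349, limma), SETD1A (log2 fold change -0.45, adjusted p = 0.107, limma) and SETD7 (log2 fold change 0.33, adjusted p = 0.0221, limma) were not called either.

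Among the 5 erasers of lysine 4, 2 rose and 1 fell. KDM1A (chr1:23019443-23083689, + strand), the flavin-dependent demethylase of the CoREST complex whose upstream stretch is given above, had 5575, 5467 and 5721 in Control and 9784, 11522 and 13180.4 with DCC-2036 (log2 fold change 1.03, standard error 0.13, adjusted p = 0.00121, limma). KDM5B (chr1:202724495-202809470, - strand), which removes the most methylated form of the mark, had 919, 838 and 830.1 in Control and 1718, 2061 and 2257 with DCC-2036 (log2 fold change 1.21, standard error 0.13, adjusted p = 0.000713, limma). In both, all DCC-2036 values lay above all Control values, and both calls held under the 14 alternatives. KDM1B, the close relative of KDM1A, fell from 668 ± 8.76 to 414 ± 65.9 (SD, n = 3) (log2 fold change -0.70, adjusted p = 0.0057, limma), a call lost when any 1 Control library or DCC-2036 replicate 2 was left out (up to 0.0259 over all alternatives). KDM5A (log2 fold change -0.34, adjusted p = 0.0314, limma) and KDM5C (log2 fold change -0.22, adjusted p = 0.278, limma) were not called.

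At lysine 9 of histone H3, the SUV39H pair, which builds constitutive heterochromatin, was lower, and EHMT2, which works in euchromatin, was higher. SUV39H1 (chrX:48695554-48709012, + strand) had 575, 683 and 679 in Control and 318, 233 and 206 with DCC-2036 (log2 fold change -1.37, standard error 0.18, adjusted p = 0.00136, limma). SUV39H2 had 486, 521 and 488 in Control and 356, 329 and 314 with DCC-2036 (log2 fold change -0.58, standard error 0.10, adjusted p = 0.0033, limma). The groups of both were apart. Other annotated genes together share 23.9% of the SUV39H1 transcript and 12.9% of that of SUV39H2. The gene sharing most is on the opposite strand in both, and this library kit, not marking strand, cannot tell such genes apart. EHMT2 had 2610.1, 2524 and 2835 in Control and 3565, 3959 and 3671 with DCC-2036 (log2 fold change 0.49, standard error 0.10, adjusted p = 0.00678, limma), and other annotated genes together share 14.3% of its transcript, most of all an antisense gene. Its partner EHMT1 had 1884, 1699.7 and 1769.8 in Control and 2326, 2467 and 1984 with DCC-2036 (log2 fold change 0.34, adjusted p = 0.0471, limma), higher in each DCC-2036 library but not called. The ratio of EHMT2 to SUV39H1 was 3.69 to 4.54 in Control and 11.2 to 17.8 with DCC-2036. SETDB1 (log2 fold change -0.50, adjusted p = 0.097, limma) and SETDB2 (log2 fold change -0.27, adjusted p = 0.391, limma) were not called. Without Control replicate 1, 2 or 3 or DCC-2036 replicate 2, EHMT2 and SUV39H2 lost their calls, as EHMT2 did with libraries scaled to equal totals (adjusted p up to 0.0379 and 0.0209 over all alternatives), whereas SUV39H1 kept its call in all 14.

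The erasers of lysine 9 also went both ways. KDM3A, an oxygen-dependent demethylase, fell from 1043 ± 93.6 to 640.1 ± 70.4 (SD, n = 3) (log2 fold change -0.71, adjusted p = 0.00406, limma), and its relative KDM3B rose from 2679.9 ± 59.3 to 3797 ± 30.6 (SD, n = 3) (log2 fold change 0.50, adjusted p = 0.00365, limma). Both calls were lost when any 1 Control library or DCC-2036 replicate 2 was left out, and that of KDM3B with equal totals (adjusted p up to 0.0188 and 0.031 over all alternatives). KDM4B went from 1371 ± 109 to 648 ± 247 (SD, n = 3) and KDM4D from 92.6 ± 10.3 to 36.6 ± 18.7 (SD, n = 3), each lower in all 3 DCC-2036 libraries with adjusted p = 0.0164 and 0.0208 (limma), outside the limit. KDM4A and KDM4C had log2 fold changes of -0.39 and 0.12 and overlapped Control, and that of KDM4C was -0.07 with libraries scaled to equal totals.

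At lysine 27 of histone H3, the mark of Polycomb, neither writer was called. EZH2, the catalytic subunit of Polycomb repressive complex 2 in dividing cells, had 1842, 1842 and 1806 in Control and 1835, 2246 and 2379 with DCC-2036 (log2 fold change 0.23, standard error 0.13, adjusted p = 0.158, limma). EZH1, its counterpart in resting cells, had 299, 287 and 234 in Control and 258, 200.4 and 199.7 with DCC-2036 (log2 fold change -0.32, standard error 0.16, adjusted p = 0.116, limma). The groups overlapped in both. Of the erasers, KDM6A had 401, 441 and 357 in Control and 429, 480.5 and 501 with DCC-2036 (log2 fold change 0.24, adjusted p = 0.137, limma), overlapping Control. KDM6B, which responds quickly to many stimuli in other settings, had 868, 737 and 799.8 in Control and 544, 556 and 598 with DCC-2036 (log2 fold change -0.50, standard error 0.11, adjusted p = 0.00768, limma), apart from Control. Its call was the one most easily lost among those that fell: it was lost when any 1 library other than DCC-2036 replicate 3 was left out, with median-of-ratios scaling and, among other settings, when symbols with any signal above 0 were tested (up to 0.0346 over all alternatives). DOT1L, the writer of lysine 79 of histone H3, had 2179.5, 2106 and 2199 in Control and 2136, 1922 and 1471 with DCC-2036 (log2 fold change -0.25, adjusted p = 0.202, limma), an overlap.

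**Figure D2:**
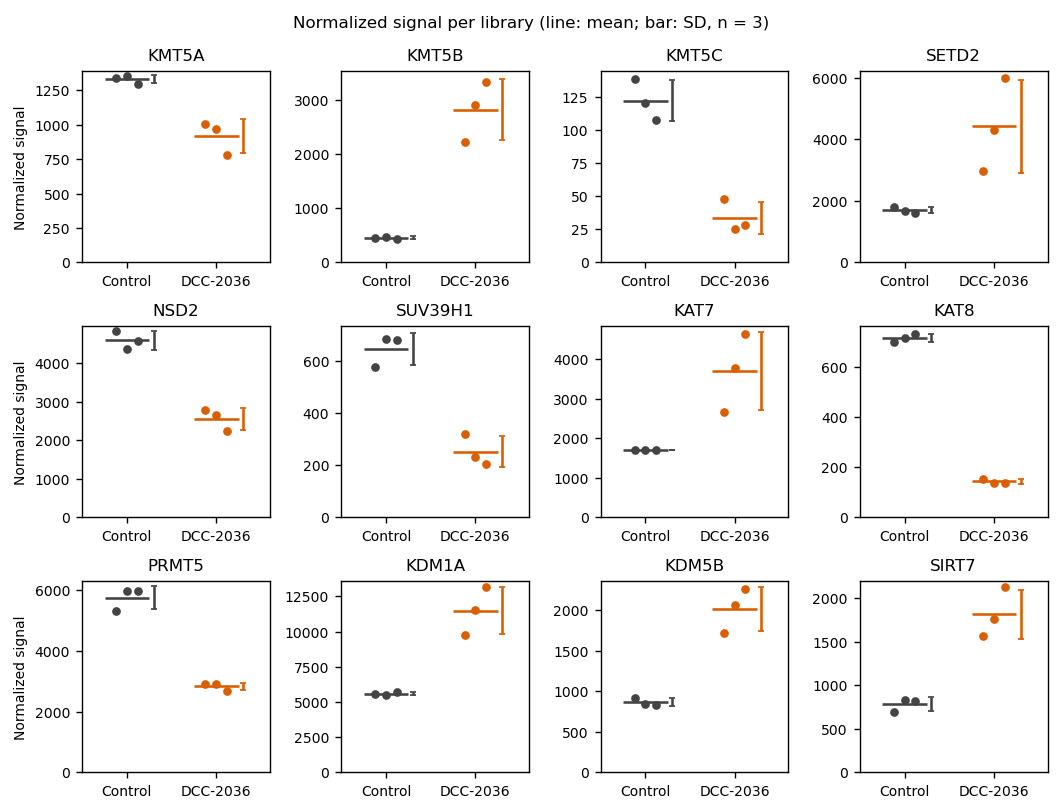
Normalized signal (linear axes from 0) of 12 members in each of the 3 Control (grey) and 3 DCC-2036 (orange) libraries, with the mean as a line and the SD as a bar (n = 3). In each panel the groups are apart, and the DCC-2036 libraries spread more than the Control libraries in most panels, as in SETD2 with 1618 to 1798 in Control and 2966 to 5989.7 with DCC-2036.

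Among the acetyltransferases KAT8 changed the most. KAT8 (chr16:31115754-31131393, + strand), which acetylates lysine 16 of histone H4 in the MSL and NSL complexes, had 698, 716 and 732 in Control and 154, 139 and 139 with DCC-2036 (log2 fold change -2.31, standard error 0.10, adjusted p = 0.000178, limma). The DCC-2036 libraries were close to each other and their mean was 20.1% of Control, the lowest percentage of all tested members. Only 5 of the 12725 tested symbols had a smaller p-value. KAT5, the catalytic subunit of the TIP60 complex, had 1089.6, 1176 and 1311 in Control and 642, 494 and 383 with DCC-2036 (log2 fold change -1.26, standard error 0.20, adjusted p = 0.00245, limma). Other annotated genes together share 49.5% of the KAT5 transcript, most of all RNASEH2C on the opposite strand. KAT7, which acetylates histones H3 and H4 with JADE and BRPF scaffolds, had 1710.3, 1699.8 and 1715 in Control and 2669, 3791 and 4645 with DCC-2036 (log2 fold change 1.08, standard error 0.20, adjusted p = 0.00466, limma). KAT6A rose from 1757 ± 158 to 3389 ± 688 (SD, n = 3) (log2 fold change 0.93, adjusted p = 0.00423, limma). The ratio of KAT7 to KAT8 was 2.34 to 2.45 in Control and 17.3 to 33.5 with DCC-2036. The call of KAT8 held in all 14 alternatives, and those of KAT5, KAT6A and KAT7 were lost when any 1 Control library or DCC-2036 replicate 2 was left out (adjusted p up to 0.0132, 0.0204 and 0.0204 over all alternatives).

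CREBBP and EP300 are paralogous co-activators that acetylate lysine 27 of histone H3. CREBBP had 2927, 2624 and 2904 in Control and 4178, 5005 and 5247 with DCC-2036 (log2 fold change 0.77, standard error 0.12, adjusted p = 0.00269, limma). EP300 had 2238, 1783 and 1839 in Control and 2291, 2581 and 2720.3 with DCC-2036 (log2 fold change 0.38, standard error 0.13, adjusted p = 0.0446, limma), higher in each DCC-2036 library than in each Control library but not called. Their ratio moved little, from 1.31 to 1.58 in Control to 1.82 to 1.94 with DCC-2036. The SAGA acetyltransferases were not called: KAT2A had 1427, 1339.7 and 1469.9 in Control and 1409, 1506 and 1571 with DCC-2036 (log2 fold change 0.08, adjusted p = 0.494, limma) and KAT2B 117, 102 and 92.8 in Control and 142, 114 and 69 with DCC-2036 (log2 fold change 0.00, adjusted p = 0.989, limma), and both turned negative with equal totals (-0.11 and -0.18 on the log2 scale). KAT14 (log2 fold change -0.44, adjusted p = 0.0213, limma) and KAT6B (log2 fold change -0.12, adjusted p = 0.408, limma) were not called. CREBBP lost its call when any 1 Control library or DCC-2036 replicate 2 was left out (up to 0.0157 over all alternatives).

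Of the classical deacetylases, 4 rose and 1 fell. HDAC1 and HDAC2 are the nearly alike catalytic subunits of the Sin3, NuRD and CoREST complexes. HDAC2 had 1604, 1569 and 1491 in Control and 3026, 4000.1 and 5357 with DCC-2036 (log2 fold change 1.37, standard error 0.21, adjusted p = 0.00215, limma). HDAC1 had 4585, 4789.6 and 5263 in Control and 6603, 7362 and 7551 with DCC-2036 (log2 fold change 0.56, standard error 0.11, adjusted p = 0.00548, limma), a smaller rise without overlap. HDAC3, the deacetylase of the NCoR and SMRT complexes, had 1619, 1777 and 1769.9 in Control and 1995, 2007 and 1626 with DCC-2036 (log2 fold change 0.12, adjusted p = 0.426, limma), overlapping Control, and turned to -0.07 with equal totals. HDAC10, a polyamine deacetylase, rose from 259 ± 27.8 to 500.4 ± 121 (SD, n = 3) (log2 fold change 0.92, adjusted p = 0.00602, limma). Other annotated genes together share 86.7% of the HDAC10 transcript, most of all MAPK12 on the same strand. HDAC6, the tubulin deacetylase of the cytoplasm, fell from 639.9 ± 15.4 to 367 ± 51.1 (SD, n = 3) (log2 fold change -0.81, adjusted p = 0.0025, limma). Of the class II members that shuttle between nucleus and cytoplasm, whose own catalytic activity is weak, HDAC4, HDAC5, HDAC7 and HDAC9 had log2 fold changes of -0.51, 0.26, -0.39 and 0.02, that of HDAC9 turning to -0.16 with equal totals, and none was called. The calls of HDAC1, HDAC2, HDAC6 and HDAC10 were lost when any 1 Control library or DCC-2036 replicate 2 was left out, and those of HDAC1 and HDAC10 with equal totals (adjusted p up to 0.0283, 0.0118, 0.0137 and 0.0268 over all alternatives).

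HDAC8, which deacetylates the cohesin subunit SMC3, was called higher on the transcript kept by the rule, with 157, 145 and 131 in Control and 317, 257 and 286 with DCC-2036 (log2 fold change 0.98, standard error 0.13, adjusted p = 0.00121, limma). Of its 6 tested transcripts 4 were called higher, the others of these with log2 fold changes of 0.79, 0.82 and 1.43. The one with the most signal in Control had a mean of 213 there and 182 with DCC-2036 and was not called (log2 fold change -0.23), and another fell from 134 to 75.3 (-0.85). HDAC8 was the only member called in both directions by transcript, and its call was lost with the median over transcripts (adjusted p = 0.0259, limma), the highest over its alternatives. Of the kept transcript, 34.5% is shared with other annotated genes together, most of all with a gene on the same strand.

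Among the sirtuins SIRT7 rose and SIRT5 fell. SIRT7, a nucleolar deacetylase of lysine 18 of histone H3, had 698, 835 and 823 in Control and 1571, 1759 and 2125 with DCC-2036 (log2 fold change 1.20, standard error 0.15, adjusted p = 0.00105, limma), and its call held in all 14 alternatives. The mitochondrial sirtuins were all lower in each DCC-2036 library. SIRT5, which removes succinyl and malonyl groups, had 233, 218 and 242 in Control and 116, 79.3 and 126 with DCC-2036 (log2 fold change -1.13, standard error 0.19, adjusted p = 0.00282, limma), and other annotated genes together share 11.4% of its transcript, most of all an antisense gene. SIRT3, the main mitochondrial deacetylase, went from 268 ± 9.39 to 130.0 ± 49.3 (SD, n = 3) and SIRT4 from 23.4 ± 6.24 to 10.2 ± 3.74 (SD, n = 3), with log2 fold changes of -1.10 and -1.14 and adjusted p = 0.0119 and 0.014 (limma), outside the limit. SIRT4 had the lowest signals of the tested members. SIRT1, the nuclear deacetylase of histones and p53, had 715, 745 and 741 in Control and 855, 753 and 665 with DCC-2036 (log2 fold change 0.04, adjusted p = 0.783, limma), an overlap, and turned to -0.15 with equal totals. SIRT2 and SIRT6 were higher in each DCC-2036 library and not called (log2 fold changes 0.51 and 0.46, adjusted p = 0.0206 and 0.0113, limma). The call of SIRT5 was lost when any 1 Control library was left out (up to 0.0148 over all alternatives).

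The arginine methyltransferases also split, and PRMT1 and PRMT5 among them held the highest Control levels of all members per kilobase of transcript. Per kilobase of transcript, the Control signal was highest for PRMT1 (5677 in Control and 7768 with DCC-2036), then PRMT5 (2378 in Control and 1171 with DCC-2036), HDAC1 (2297 in Control and 3377 with DCC-2036), KDM1A (1827 in Control and 3758 with DCC-2036) and NSD2 (1079 in Control and 601 with DCC-2036). PRMT1, which makes most asymmetric arginine methylation, had signals of 6872, 7738 and 7991 in Control and 9894, 10506 and 10524 with DCC-2036 (log2 fold change 0.45, standard error 0.10, adjusted p = 0.0098, limma). PRMT5 (chr14:22920511-22929585, - strand), which makes most symmetric arginine methylation, had 5321, 5960.2 and 5966 in Control and 2911, 2895 and 2687 with DCC-2036 (log2 fold change -1.02, standard error 0.10, adjusted p = 0.000579, limma). Other annotated genes together share 37.1% of the PRMT5 transcript, most of all its antisense gene PRMT5-AS1. The groups of neither PRMT1 nor PRMT5 overlapped, and the ratio of PRMT1 to PRMT5 was 1.29 to 1.34 in Control and 3.40 to 3.92 with DCC-2036. PRMT5 kept its call in all 14 alternatives. PRMT1 lay close to the limit and lost its call when any 1 of the 6 libraries was left out and with equal totals (up to 0.0482 over all alternatives).

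PRMT6, which methylates arginine 2 of histone H3, had 302, 303 and 301 in Control and 88.3, 112 and 172 with DCC-2036 (log2 fold change -1.33, standard error 0.24, adjusted p = 0.00376, limma). PRMT3, whose best known substrate is a ribosomal protein, had 637, 676 and 583 in Control and 348, 285 and 274 with DCC-2036 (log2 fold change -1.07, standard error 0.13, adjusted p = 0.00104, limma), a call that held in all 14 alternatives. PRMT9, which methylates a splicing factor, had 164, 209 and 156 in Control and 340.2, 359 and 476 with DCC-2036 (log2 fold change 1.14, standard error 0.18, adjusted p = 0.00239, limma). In all of these the groups were apart. CARM1, a co-activator that methylates histone H3, had 2901, 2997 and 3093 in Control and 4351, 4458 and 3591 with DCC-2036 (log2 fold change 0.46, adjusted p = 0.0156, limma), higher without overlap and outside the limit. Other annotated genes together share 26.6% of the CARM1 transcript, most of all YIPF2 on the opposite strand. PRMT7 (log2 fold change -0.56, adjusted p = 0.0294, limma) and PRMT2 (log2 fold change 0.01, adjusted p = 0.962, limma) were not called, and PRMT2 turned to -0.18 with equal totals. PRMT6 lost its call when any 1 Control library or DCC-2036 replicate 2 was left out and PRMT9 without Control replicate 1 or 3 (adjusted p up to 0.0171 and 0.0131 over all alternatives).

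Members whose best known work lies outside histones included further calls. KDM8, a JmjC protein now known as an arginine hydroxylase, had 43.1, 62.5 and 63.6 in Control and 20.7, 18.5 and 22.2 with DCC-2036 (log2 fold change -1.40, standard error 0.18, adjusted p = 0.00114, limma), and held its call in the 13 alternatives run for it. Other annotated genes together share 11.6% of the KDM8 transcript, most of all an antisense gene. SETD6, which methylates the NF-κB subunit RELA, fell from 403 ± 13.9 to 214 ± 24.6 (SD, n = 3) (log2 fold change -0.91, adjusted p = 0.00128, limma), and held its call in all 14. SETD5, a SET protein tied to a corepressor complex, rose from 2679 ± 181 to 4645 ± 874 (SD, n = 3) (log2 fold change 0.78, adjusted p = 0.00627, limma), a call lost when any 1 Control library or DCC-2036 replicate 2 was left out and with equal totals (up to 0.0279 over all alternatives). KMT2E (log2 fold change 0.76, adjusted p = 0.016, limma), SETD4 (log2 fold change 0.50, adjusted p = 0.0276, limma), SETD9 (log2 fold change 0.27, adjusted p = 0.127, limma) and SETD3, the actin histidine methyltransferase (log2 fold change -0.07, adjusted p = 0.66, limma), were not called. NSDHL (log2 fold change 0.34, adjusted p = 0.0998, limma) and SETDB2-PHF11 (log2 fold change -0.62, adjusted p = 0.0133, limma) were not called either.

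Pairs of related members that moved apart can be read within each library, where the scaling of the library cancels. The 10 pairs were chosen after their values had been seen, and the ratios are given without a test. Besides those above, the ratio of KAT6A to KAT5 was 1.31 to 1.77 in Control and 4.21 to 10.6 with DCC-2036. That of SIRT7 to SIRT3 was 2.55 to 3.21 and 8.62 to 25.2, and that of EZH2 to EZH1 6.16 to 7.70 and 7.11 to 11.9. The Control and DCC-2036 ratios overlapped for EZH2 to EZH1 and for no other of the 10 pairs. Transcripts differ in length, so a ratio compares libraries and not the levels of its 2 genes.

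**Figure D3:**
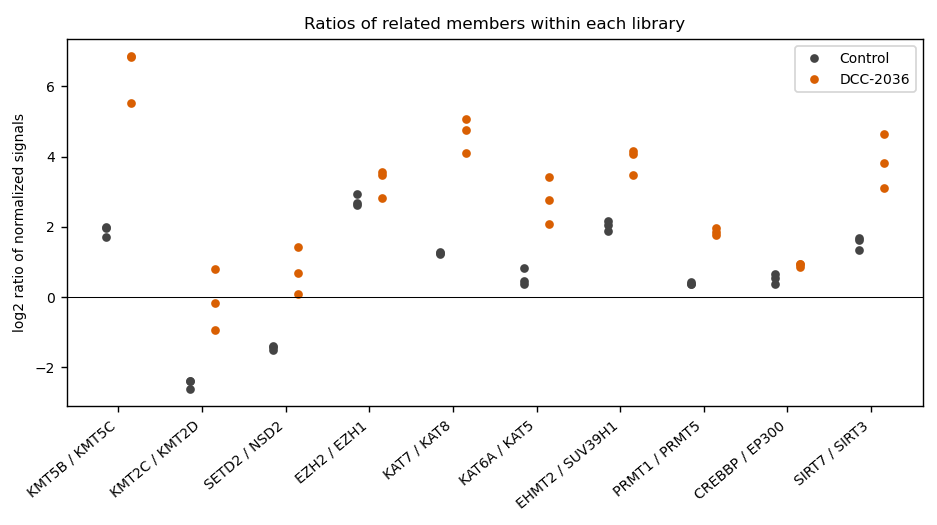
Log2 ratio of the normalized signals of 10 pairs of related members within each Control (grey) and DCC-2036 (orange) library, 1 point a library. The points of the groups are apart in 9 pairs, the widest for KMT5B to KMT5C (1.72 to 1.99 in Control, 5.54 to 6.87 with DCC-2036), and overlap for EZH2 to EZH1.

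The table gives a value for each transcript, and the members had 263 rows. Of the 55 members with more than 1 tested transcript, 8 had log2 fold changes that ranged over more than 0.5, and the median range was 0.04. For KMT5B all 5 transcripts were called higher, but by unequal amounts. The shortest, with lengths of 2666 and 1881 bases, had log2 fold changes of 2.62 and 2.64, and the others, of 4306 to 5837 bases, 1.66 to 1.72. For NSD2, 4 transcripts with Control means of 4523 to 4586 were lower (-0.86 to -0.85), and the other two, with 1513 and 1584, were not called (-0.09 and 0.11). For SETDB1 the kept transcript had -0.50 and was not called, while a shorter one rose from 193 to 329 (0.77). For SETD7 the kept transcript, with a Control mean of 2318, had 0.33 and was not called, and transcripts at 305 and 126 rose by 0.84 and 1.63. For KDM4C 1 transcript rose (1.53, Control mean 52.4), and none of the other 5 was called. How reads were shared among transcripts is not given in the sources used here, and transcripts of a gene overlap in sequence. These fits, with each transcript as its own row, were chosen after the data had been seen.

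Partner subunits and related proteins from lists of the same field were called in both directions as well. Of 9 subunits of Polycomb repressive complex 2, 2 were higher and 2 lower, the largest change being that of PHF19 (1424 to 460.3, log2 fold change -1.63, adjusted p = 0.000277). Of 10 COMPASS core subunits, which serve the lysine 4 methyltransferases, 3 were higher and 1 lower, among them CXXC1 (1510.2 to 3320.4, log2 fold change 1.13, adjusted p = 0.000531). Of 20 deacetylase corepressor subunits, 4 were higher and 3 lower, with NCOR1 at 1.45 and MIER1 at 1.36 above and MBD3 at -1.63 and SAP30 at -1.25 below (log2 fold changes). Of 25 acetyltransferase complex subunits, 8 were higher and 4 lower. Among the higher were EPC1 and EPC2, subunits of the TIP60 complex of KAT5, with log2 fold changes of 1.11 and 1.24. MEAF6, which also belongs to this complex, was called higher too (0.50). Its subunits DMAP1, TRRAP and ING3 were not called, at log2 fold changes of -0.08, 0.16 and 0.17.

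Partners of KAT8 did not all follow it: KANSL1 of the NSL complex had a log2 fold change of 1.17 and MSL2 of the MSL complex 1.64, while MCRS1 of the NSL complex had -1.42. Of the other subunits of these complexes in the list, KANSL2 rose (0.86), MSL3 fell (-0.73), and KANSL3 (-0.22) and MSL1 (0.38) were not called. Of NSL subunits placed in the other lists, WDR5 rose (0.82), PHF20 fell (-0.89) and HCFC1 (0.02) was not called. Of the scaffolds that serve KAT7, JADE1 rose (388 to 1646, log2 fold change 2.04, adjusted p = 0.000802). JADE2, JADE3, BRPF1, BRPF3 and BRD1 were not called, at log2 fold changes of -0.90, 0.03, -0.01, 0.02 and -0.07. Of 20 writers and erasers with other names, 5 were higher and 3 lower. The lowest were RIOX1 (73.2 to 7.34, log2 fold change -3.20, adjusted p = 0.000439, limma) and HR (852 to 281, log2 fold change -1.62, adjusted p = 0.000724, limma), and PRDM2 (1.47) was the highest. The DCC-2036 mean of RIOX1 (SD 2.96) lay under the filter value of 10, which its Control mean passed. The size of its change is therefore uncertain. RIOX1 and HR are JmjC proteins, as are RIOX2, which rose (log2 fold change 0.71), and JMJD1C (0.32), JMJD6 (-0.01), PHF2 (0.29) and PHF8 (mean signal 820.3 to 447), which were not called. Of 19 readers of acetyl and methyl marks, 2 were higher and 6 lower. CBX2, CBX5, CBX6 and CBX7, which bind methylated lysines of histone H3, had log2 fold changes of -2.17, -1.61, -1.63 and -1.61. The called shares of these lists ranged from 35% to 48%, beside 41.9% of all symbols.

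One DCC-2036 library lay farther out than the others. In 25 of the 34 called members (73.5%) DCC-2036 replicate 3 was the one farthest from the Control mean, as it was in 64.5% of the 5329 called symbols. The median log2 difference from the Control mean over all tested symbols was -0.03, -0.07 and -0.12 in DCC-2036 replicates 1, 2 and 3. For writers it was -0.002, -0.02 and -0.44, and for erasers 0.14, 0.10 and -0.42. Without replicate 3, 19 members were higher and 23 lower, and of the 34 calls only that of PRMT1 was lost. Without replicate 1 the counts were 18 and 25, without replicate 2 they were 7 and 9, and without Control replicates 1, 2 and 3 they were 6 and 7, 7 and 8, and 6 and 7. Whether calls over all symbols changed alike with a library left out is not given here. When all symbols with a signal above 0 in any library were tested, 11 members lost their calls, EHMT2, HDAC1, HDAC10, KAT6A, KAT7, KDM1B, KDM3A, KDM6B, PRMT1, SETD2 and SETD5. All 34 called members kept their direction under each of 14 alternatives where they were tested. The calls of 11, KAT8, KDM1A, KDM5B, KDM8, KMT5B, KMT5C, PRMT3, PRMT5, SETD6, SIRT7 and SUV39H1, held in each.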

How the data were processed

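RNA of 3 Control and 3 DCC-2036 libraries of LoVo cells was measured, grouped by the titles in the labels. Libraries were made with a Nextera XT kit, which does not mark strand. The authors deposited 1 normalized signal per transcript and library (45006 transcripts, 4524 at 0 throughout), adjusted to a common depth. Values are not whole numbers, reads were not recovered, and depth is unknown. The aligner, counter and genome build are not given in the sources used here. The authors also deposited log2 fold changes of their own with p-values and q-values per transcript, made by a method not given in the sources used here, and these were not used.

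Per symbol, the transcript with the largest mean across libraries was kept. Symbols whose signal reached 10 in 3 or more libraries (12725) were tested on log2(signal + 1) with limma 3.58.1 in R 4.3.3 without covariates, two-sided, with Benjamini-Hochberg adjustment over all of them, and called below 0.01. A test on reads, planned in case the table held counts, was not made. Fold changes on this scale understate changes at low signals. For 3 against 3 libraries the smallest exact permutation p is 0.1, so none was used. Code ran in Python 3.11.15 (pandas 2.3.3, numpy 2.4.6, matplotlib 3.10.9) and was tested on simulated data.

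Members, classes and lists were chosen with earlier results of these data known. All members may be named. Values of each library are given for called members that changed by 1 or more on the log2 scale and for a list of well known enzymes, KMT5A being added after its values were seen, and genes outside the rule are named when past the same limits. Some other KAT5, KAT7 and KAT8 partners and JmjC proteins, not all of those in the lists, were added after their values were seen. One gene of the lists is not reported here. Coordinates and lengths come from GENCODE 29, matched by RefSeq accession for 85 of 87 members. Of these, 17 share over 10% of their length with other genes. Shared lengths are counted over all other genes together, and a gene named beside a length is the gene sharing most. Alternatives were other scalings, filters, pseudocount, transcript choice, limits, a replicate block and each library left out, and, added after the data were seen, limma with a trend and each transcript as its own row.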

Additional observations from a re-analysis of the deposited data

How the results depend on the processing

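Beside 18 higher and 16 lower members (writers 10 and 10, erasers 8 and 6), counts higher and lower were 12 and 17 (7 and 11, 5 and 6) with libraries scaled to equal totals, 20 and 15 (11 and 10, 9 and 5) with median-of-ratios scaling, 10 and 13 (4 and 10, 6 and 3) for a signal above 0 in 1 library, 21 and 19 (12 and 11, 9 and 7) for a mean of at least 100, 22 and 21 (13 and 13, 9 and 8) with a trend in limma, 27 and 29 (17 and 17, 10 and 11) at an adjusted p under 0.05, and 9 and 9 (5 and 7, 4 and 2) where a change of 1 or more on the log2 scale was also asked. Without enzymes classed as mainly of other substrates there were 8 and 8 writers and 7 and 3 erasers. The shares of all symbols called are given only for the main limit, with and without a change of 1 or more. For the other settings, including the left-out libraries, whether members changed more than other symbols was not tested. The replicate block gave 6 and 9 (1 and 7, 5 and 2), and 19 members lost their calls, CREBBP, EHMT2, HDAC1, HDAC10, HDAC6, KAT5, KAT6A, KAT7, KDM1B, KDM3A, KDM3B, KDM6B, KMT2C, PRMT1, PRMT6, PRMT9, SETD2, SETD5 and SUV39H2. Same-numbered libraries deviated from their group means with correlations of 0.081, -0.03521 and -0.003294 across symbols, and not every library correlated best with its own number, so they share only a number and the pairing was not used. Leaving out each library gave 6 to 19 higher and 7 to 25 lower members, 2 to 10 and 6 to 14 writers and 4 to 9 and 1 to 10 erasers; 25 lower members came without DCC-2036 replicate 1, which also gave 18 higher. The median log2 fold change over all symbols was -0.28 with equal totals and -0.01 with median of ratios, beside -0.09. The erasers' median was -0.1634 with equal totals, -0.0817 with the median over transcripts and -0.2328 to 0.1409 with a library left out. The writers' median was -0.3080 with equal totals, -0.2728 without enzymes classed as mainly of other substrates and -0.2202 to 0.0125 with a library left out. No called member changed direction. Members not called turned with equal totals (HDAC3 -0.0716, HDAC9 -0.1634, KAT2A -0.1075, KAT2B -0.1834, KDM2A -0.1401, KDM4C -0.0722, PRMT2 -0.1839, SIRT1 -0.1493), with median of ratios (HDAC11 0.0035, SETD3 0.0099) and with the median over transcripts (HDAC9 -0.0817, KDM2A -0.0382). With a library left out, ranges that crossed 0 were PRMT2 -0.0269 to 0.0704, HDAC9 -0.2928 to 0.4869, KAT2B -0.2202 to 0.2945, HDAC11 -0.2328 to 0.1698, SIRT1 -0.0505 to 0.1305, SETD3 -0.1553 to 0.0562, SETDB2 -0.5268 to 0.0125. The cause of these changes was not tested. Depth is unknown, so what it limits cannot be given.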
